A study of Mus musculus with 13 samples.

Results

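Somatostatin interneurons of the mouse hippocampus were chosen by measured counts, as the nuclei with at least 3 unique molecular identifiers (UMIs, each counting 1 captured RNA molecule) of Gad1 and Gad2 together and at least 3 UMIs of Sst, among barcodes with at least 500 detected genes and at most 5% mitochondrial UMIs. The rule found 511 nuclei among 105427 retained barcodes (0.485%), and 10.4% of the 4891 inhibitory nuclei, which are all retained barcodes with at least 3 Gad1 and Gad2 UMIs. Because the nuclei were selected on these counts, the levels of Gad1, Gad2 and Sst are given below only as a description. The libraries came from sorted nuclei of frozen whole hippocampus of female F1 hybrid mice, with 1 library per sample, taken here as 1 mouse. Groups were young mice fed ad libitum (AL) at 5 months of age (n = 3), old mice fed AL at 24 months (n = 3, numbered 1, 2 and 4), old mice at 24 months on acute dietary restriction (DR) begun at 20 months (n = 3), and old mice at 24 months on long-term DR begun at 5 months (n = 4). The labels name no mutation or transgene in any group, do not say whether a sample pools animals and write the strain as C3HB6F1, where the series text has C3B6F1.

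Somatostatin interneurons release GABA together with the peptide somatostatin, and arise in the medial ganglionic eminence, where the transcription factors Lhx6, Sox6 and Satb1 direct their fate. In the hippocampus they include the oriens-lacunosum moleculare cells of CA1 and the hilar cells associated with the perforant path, which inhibit the distal dendrites of principal cells, and a rare long-range type marked by Nos1 and Chodl. The peptide precursor is cut by prohormone convertases and stored in dense core vesicles. Acting through its receptors, somatostatin lowers the excitability of its target neurons.

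The upstream regions of Sst, which defined the set, and of Npy, which encodes the co-released neuropeptide Y and was the listed peptide gene most raised in these nuclei, are shown to place both peptide genes side by side. Both are the 250 bases before the RefSeq transcription start (build GRCm38.p6, the mm10 assembly), Sst at chr16:23890845-23891094 on the minus strand and Npy at chr6:49822460-49822709 on the plus strand, each printed 5′ to 3′. Capitals mark a match to the full cyclic AMP response element TGACGTCA, a palindrome that reads the same on both strands.
Sst: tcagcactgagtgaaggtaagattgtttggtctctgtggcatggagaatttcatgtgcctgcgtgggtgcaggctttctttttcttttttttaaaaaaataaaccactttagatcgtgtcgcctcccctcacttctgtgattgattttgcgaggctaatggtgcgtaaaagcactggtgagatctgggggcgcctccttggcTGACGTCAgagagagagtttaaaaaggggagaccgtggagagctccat
Npy: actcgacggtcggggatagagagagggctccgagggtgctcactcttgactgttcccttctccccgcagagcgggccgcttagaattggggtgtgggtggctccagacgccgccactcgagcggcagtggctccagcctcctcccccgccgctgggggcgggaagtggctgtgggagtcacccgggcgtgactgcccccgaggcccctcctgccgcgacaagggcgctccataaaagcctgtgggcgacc
The Sst window held 1 match, beginning 48 bases before the start site, and the Npy window held 0. The element was present in 508 of 32851 RefSeq promoter windows of this length (1.55%), in 252 of the 7407 tested genes with a window (3.40%), and in 29 of the 697 such genes that were higher in Sst-gated than in Sst-negative nuclei (4.16%). The shorter site TGACG, which the full element contains, was searched on both strands and found in 17.8% of all windows, 32.7% of those of tested genes and 28.0% of those of the higher genes, in Sst and not in Npy. A match describes letters in the window and no binding was measured.

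Sst counts in the 511 nuclei ran from 3 to 40 UMIs, with a median of 5 and quartiles of 4 and 8. The median depth was 10012 UMIs per nucleus, against 9277 in the 3838 Sst-negative inhibitory nuclei (at least 3 Gad1 and Gad2 UMIs, 0 of Sst). Next to the Sst threshold, 201 nuclei held 3 or 4 Sst UMIs and 542 inhibitory nuclei held 1 or 2 and stayed outside. Next to the Gad threshold, 166 nuclei held 3 or 4 Gad UMIs, and 121 nuclei with at least 3 Sst UMIs held 1 or 2 Gad UMIs and stayed outside. The nuclei just outside the Sst threshold carried an Lhx6 UMI in 33.9% of cases and those just inside in 48.3%, against 20.6% at 0 Sst UMIs. Npy detection followed the Sst count over its whole range, at 11.0%, 19.7%, 31.8%, 39.9% and 71.1% for 0, 1 or 2, 3 or 4, 5 to 9, and 10 or more Sst UMIs. The bins above 0 differed little in depth, with medians between 9491.5 and 10409 UMIs. They pool the nuclei of all mice, and the trend was not tested within mice.

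RNA released from lysed cells adds UMIs to every barcode. In 7417 oligodendrocyte-gated nuclei (no Gad1 or Gad2 UMI, at least 3 of Mobp and Mog together, median 2160 UMIs) the share with a Sst UMI was between 0% and 3.85% by library, and in 11897 excitatory-gated nuclei (no Gad1 or Gad2 UMI, at least 3 of Slc17a7, median 10487 UMIs) it was between 0.641% and 4.37%. At the threshold of 3 Sst UMIs, 1 nucleus of each kind was found. Barcode sequences shared between pairs of libraries numbered between 3 and 40.

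Gad1, Gad2 and Sst were fixed by the rule, so the label is set here beside genes outside it. Lhx6, which the rule did not use, was detected in 48.7% of the nuclei, against 20.6% of Sst-negative inhibitory nuclei and 0.1% of oligodendrocyte-gated or excitatory-gated nuclei. Satb1 was detected in 88.1% against 35.7%, and Sox6 in 72.2% against 29.4%. Grin3a, which encodes the NMDA receptor subunit GluN3A, was found in 90.2% against 48.0%, and Elfn1, a postsynaptic adhesion protein that shapes the excitatory inputs of these cells, in 59.5% against 14.2%. With every nucleus thinned to 4000 UMIs (503 and 3697 nuclei were deep enough), Lhx6 stood at 24.9% against 10.2%, Satb1 at 71.0% against 25.6%, Grin3a at 80.7% against 35.0% and Elfn1 at 39.2% against 8.1%. Chrna2, a nicotinic receptor subunit used to mark oriens-lacunosum moleculare cells, was seen in 0.4% of the nuclei, and Chodl in 1.8%. The genes that name other interneuron classes were found in few nuclei: Pvalb in 3.7%, Vip in 1.6% and Lamp5 in 1.8%. Other markers listed for those classes were common, in Sst-negative nuclei too: of the 5 Pvalb-type markers Erbb4 was found in 87.7%, Kcnc1 in 72.0% and Btbd11 in 54.8%, and of the Cck-type markers Cnr1 in 33.7%. Slc17a7, which encodes the vesicular glutamate transporter of excitatory neurons, was found in 14.3%, against 21.0% of Sst-negative inhibitory nuclei, and 34 nuclei (6.65%) were called doublets. The bar chart of detection by gate sets these shares beside those of 56 Pvalb-gated nuclei (at least 3 Pvalb UMIs and fewer than 3 of Sst). Lhx6, Satb1 and Sox6 were not called between Sst-gated and Pvalb-gated nuclei in the comparison below, so they do not set these gates apart.

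**Figure D1:**
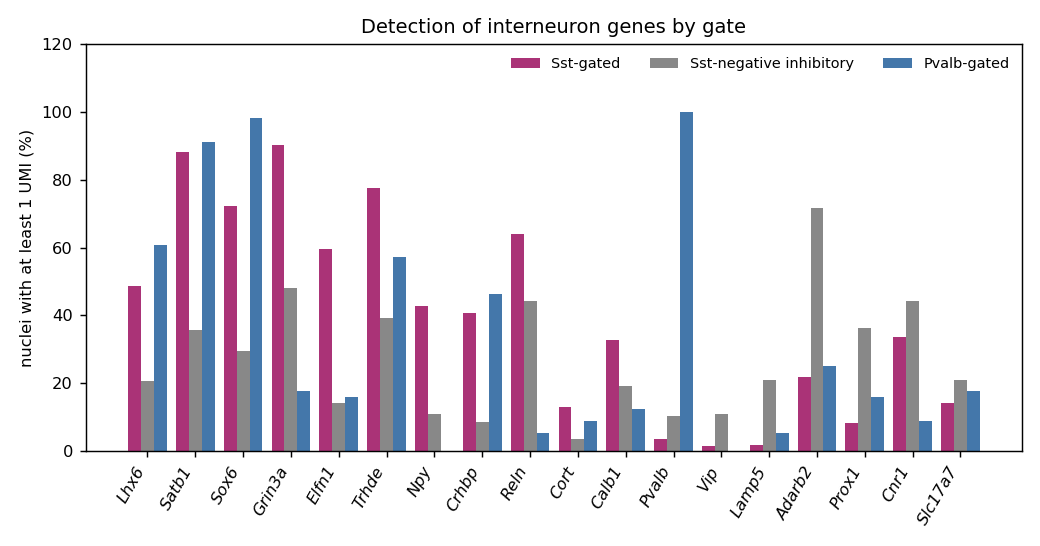
Percentage of nuclei with at least 1 UMI of each gene (y axis) in 511 Sst-gated, 3838 Sst-negative inhibitory and 56 Pvalb-gated nuclei, pooled over 13 mice. Grin3a, Elfn1, Npy and Reln are high in Sst-gated and low in Pvalb-gated nuclei, and Pvalb was part of the rule for the Pvalb gate.

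The nuclei were spread unevenly over the mice. Young AL mice 1, 2 and 3 gave 99, 18 and 22 nuclei, old AL mice 1, 2 and 4 gave 63, 29 and 33, acute DR mice gave 104, 7 and 7, and long-term DR mice gave 72, 24, 24 and 9. In every group the library numbered 1 gave the most, and these 4 libraries held 338 of the 511 nuclei (66.1%) with 29.4% of all retained barcodes and 46.0% of inhibitory nuclei. As a share of inhibitory nuclei, the members made up 19.3%, 7.11% and 8.56% in young AL mice and 17.9%, 7.29% and 9.51% in old AL mice. The share was 13.6%, 3.70% and 1.84% under acute DR and 11.5%, 6.59%, 10.1% and 4.21% under long-term DR. All groups overlapped, and the library numbered 1 was the highest in each. The log2 odds were compared in 4 contrasts by two-sided exact permutation tests, with Benjamini-Hochberg adjustment over the 4. Old AL minus young AL differed by 0.02 (exact p = 0.9, adjusted p = 0.9, n = 3 and 3). With every nucleus thinned to 4000 UMIs before the rule was applied, this difference turned to -1.57. Thinned shares were 13.1%, 4.80% and 4.17% in young mice, from 40, 6 and 6 nuclei. In old AL mice they were 6.37%, 0.990% and 1.82%, from 10, 2 and 3 nuclei. So few nuclei do not show whether the share changes at matched depth. Without doublets the old minus young difference was -0.049. Long-term DR minus old AL differed by -0.57 (exact p = 0.4, adjusted p = 0.571, n = 4 and 3), and acute DR minus old AL by -1.33 (exact p = 0.3, adjusted p = 0.571, n = 3 and 3). Long-term minus acute DR differed by 0.76 (exact p = 0.429, adjusted p = 0.571), and by -0.017 after thinning. The thinned value rests on 27, 1 and 2 nuclei in acute DR and 14, 6, 2 and 0 in long-term DR mice. With each mouse left out in turn, long-term DR minus old AL ran from -0.89 (without old AL mouse 2) to -0.15 (without old AL mouse 1), acute DR minus old AL from -2.18 (without acute DR mouse 1) to -0.64 (without acute DR mouse 3), and long-term minus acute DR from 0.07 (without acute DR mouse 3) to 1.61 (without acute DR mouse 1). With 3 mice against 3 the smallest possible p is 0.1, and after adjustment over the 4 contrasts no contrast could pass 0.05, so these tests cannot show whether the shares differ.

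The level of Sst itself was compared in nuclei that were chosen without it, namely inhibitory nuclei with at least 1 Lhx6 UMI, of which each mouse gave 46 to 219. Sst stood at 317, 163 and 70.9 CPM (the gene's UMIs scaled to a common library total) in young AL mice and at 178, 79.1 and 129 CPM in old AL mice. It stood at 209, 34.0 and 48.0 CPM under acute DR and at 117, 67.4, 90.4 and 88.7 CPM under long-term DR. The groups overlapped in all contrasts. The 4 tests have the same limit as those of the share, and none could pass 0.05 after adjustment. On the log2(CPM + 1) scale, old AL minus young AL was -0.34 (exact permutation p = 0.8, adjusted p = 0.8), long-term DR minus old AL was -0.45 (exact p = 0.257, adjusted p = 0.8), acute DR minus old AL was -0.79 (exact p = 0.4, adjusted p = 0.8) and long-term minus acute DR was 0.34 (exact p = 0.629, adjusted p = 0.8). Of these directions, long-term DR minus old AL turned to 0.38 after thinning, old minus young to 0.18 without young AL mouse 1, and long-term minus acute DR to -0.17 without acute DR mouse 2. With each mouse left out, long-term DR minus old AL ran from -0.76 to -0.18 and acute DR minus old AL from -1.57 to -0.28. Within groups the spread was wide, with an SD of 1.07 (n = 3) in young AL, 0.58 (n = 3) in old AL, 1.37 (n = 3) in acute DR and 0.32 (n = 4) in long-term DR mice. Acute DR mouse 1, the highest of its group, also held 104 of the group's 118 members.

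**Figure D2:**
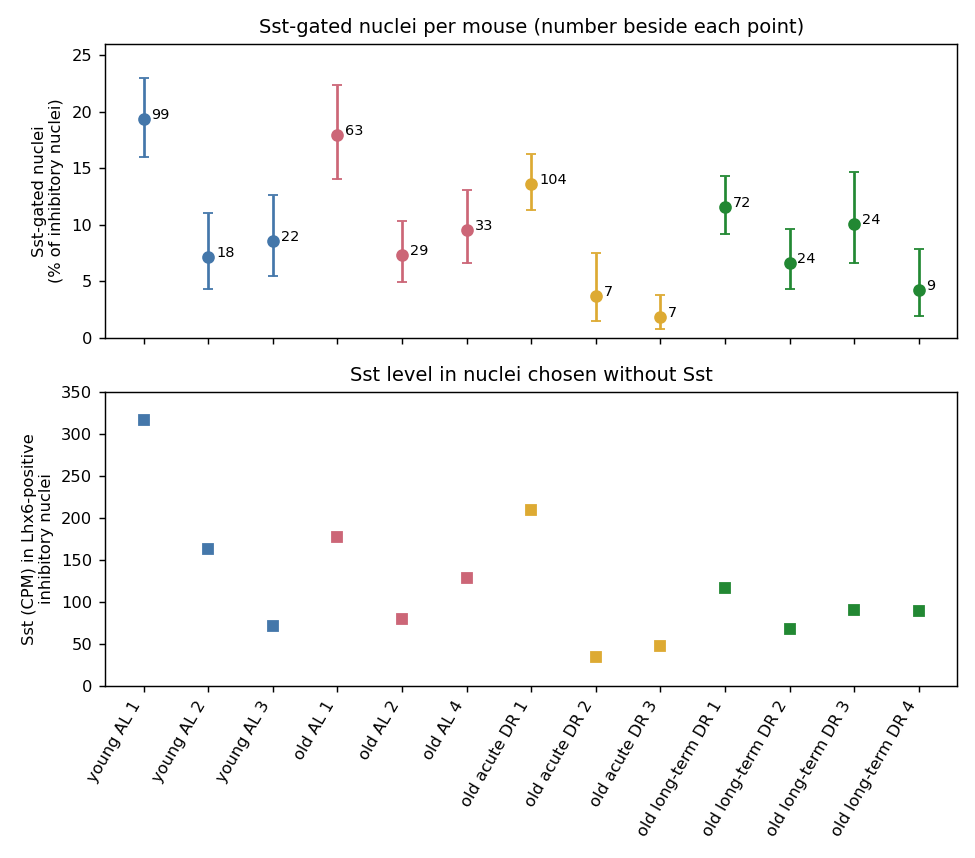
Upper panel, Sst-gated nuclei as a percentage of inhibitory nuclei per mouse (points) with exact 95% binomial intervals, which cover counting error only, and the number of nuclei beside each point; lower panel, Sst in CPM in Lhx6-positive inhibitory nuclei of the same mice. The library numbered 1 is highest in every group in both panels, shares are from unthinned counts, and the old minus young difference turned from 0.02 to -1.57 log2 odds after thinning to 4000 UMIs. The thinned shares rest on 40, 6 and 6 nuclei in young AL and 10, 2 and 3 in old AL mice.

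The next comparison asked how these nuclei differed from other inhibitory nuclei of the same mice. Counts were summed per mouse and gate in the 10 mice with at least 10 members, and edgeR's quasi-likelihood test with a term for the mouse was fitted over 9567 genes. At a Benjamini-Hochberg adjusted p below 0.05, 1861 genes differed (19.5%), 932 higher in the Sst-gated nuclei (9.74%) and 929 lower (9.71%). The balance of directions depended on the setting, with 795 higher and 1014 lower under RLE factors, 688 and 925 with DESeq2, 806 and 1618 without the filter on low counts, and 413 and 612 without the 4 libraries numbered 1. Sst, Gad1 and Gad2 are left out of what follows. Counts by gene list in this comparison are to be read beside the 9.74% higher and 9.71% lower over all genes, and no list was tested as a set.

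Npy had the largest increase among the named genes, at a mean log2 CPM of 7.31 ± 0.58 (SD, n = 10) against 4.30 ± 0.87 in Sst-negative nuclei. Its level in Sst-gated nuclei ran from 6.57 to 8.27 log2 CPM and in Sst-negative nuclei from 3.05 to 5.64, so the gates did not overlap. Npy was 2.91 ± 0.17 log2 units higher (SE; adjusted p from edgeR 2.12e-08), in all 10 mice. Crhbp, which encodes a binding protein for corticotropin-releasing hormone, was 2.56 ± 0.25 log2 units higher (adjusted p = 1.32e-05), from 5.02 to 7.58 log2 CPM in Sst-gated nuclei and from 2.90 to 4.70 in Sst-negative nuclei. Of the 16 neuropeptide genes listed, 6 passed the filter on low counts. Npy and Crhbp were higher, Vip, Cck and Pnoc were lower, with log2 fold changes of -5.18, -2.04 and -0.57, and Tac1 was not called.

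Among 16 genes of peptide processing and dense core vesicles, all tested, 6 were higher and 3 lower, with a median log2 fold change of 0.25 beside 0.04 over all genes. The higher members were Vgf (1.58 ± 0.14), Pam (0.48), Chga (0.44), Ptprn2 (0.33), Scg5 (0.30) and Pcsk1n (0.30). Pam amidates peptides, Vgf and Chga are granins packed into dense core vesicles, and Pcsk1n encodes an inhibitor of the convertase PC1. The lower members were Cadps2, a vesicle priming factor (-3.35 ± 0.16), Pcsk2, the convertase PC2 (-0.97 ± 0.15), and Cadps (-0.21). None of the 5 somatostatin receptor genes passed the filter; Sstr1 was detected in 6.7% of Sst-gated and 1.5% of Sst-negative nuclei, and Sstr2 in 2.5% and 4.5%.

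Of 15 medial ganglionic eminence lineage factors, 11 were tested, 6 were higher and 4 lower. Among them, Satb1 was 1.62 ± 0.14 log2 units higher, Sox6 1.31 ± 0.08, Lhx6 1.19 ± 0.11 and Maf 0.52 ± 0.06, each in all 10 mice. The lower members were St18 (-1.38), Dlx6os1 (-1.25), Mef2c (-0.58) and Zeb2 (-0.38). Of 10 genes of the caudal ganglionic eminence, the birthplace of Vip and Lamp5 interneurons, 9 were tested, 0 were higher and 6 were lower. Adarb2, an RNA-binding protein that marks these lineages, had a log2 fold change of -5.35 ± 0.59 (adjusted p = 9.78e-05), Vip -5.18 ± 0.26, Lamp5 -3.94 ± 0.28, Htr3a -2.60 ± 0.38, the cannabinoid receptor gene Cnr1 -2.46 ± 0.18 and Prox1 -2.43 ± 0.30. Under a stricter gate of at least 5 UMIs Prox1 was no longer called (edgeR adjusted p = 0.0710). St18 is also a listed oligodendrocyte marker, and Prox1 a listed granule neuron marker. Median sums in Sst-gated against Sst-negative nuclei were 77.0 against 138 CPM for oligodendrocyte markers and 255 against 446 CPM for granule markers. CA1 markers went the other way, at 497 against 412 CPM. The part of such markers in these fold changes was not tested. Adarb2 in Sst-gated nuclei spread from 3.21 log2 CPM in young AL mouse 3 to 10.28 in old AL mouse 2, against 11.79 to 13.09 in Sst-negative nuclei.

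**Figure D3:**
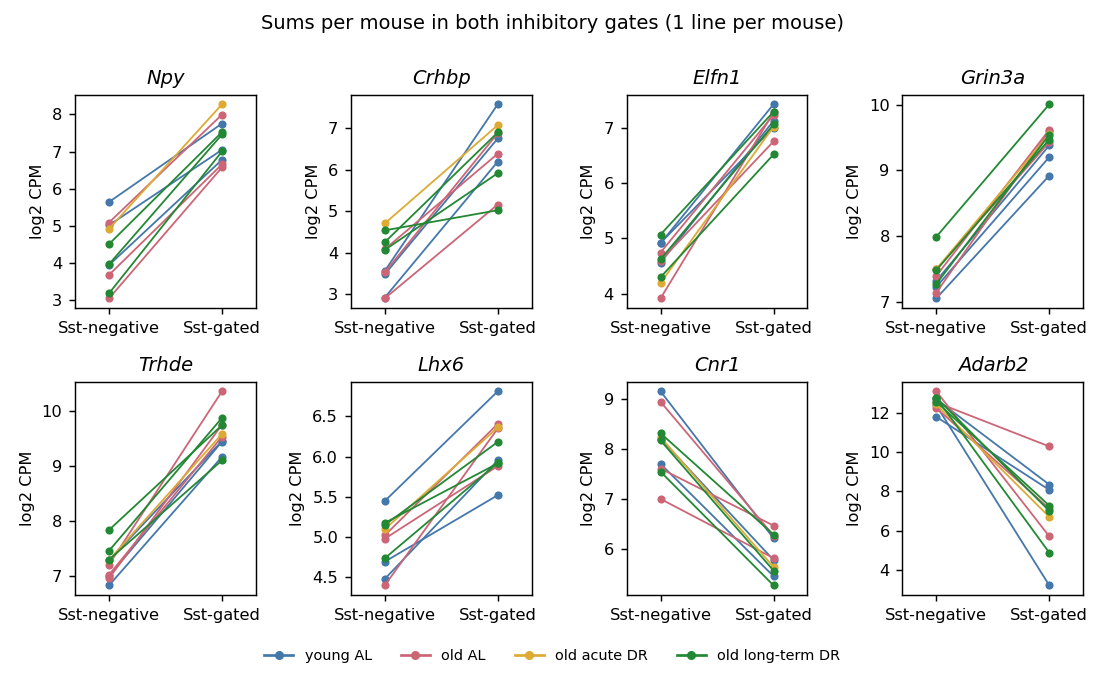
Log2 CPM of 8 genes in the summed counts of Sst-negative and Sst-gated inhibitory nuclei, with 1 line for each of the 10 mice that had at least 10 Sst-gated nuclei, coloured by group. Npy, Crhbp, Elfn1, Grin3a, Trhde and Lhx6 are higher and Cnr1 and Adarb2 lower in the Sst-gated nuclei of all 10 mice.

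Genes known to differ among types of somatostatin interneuron moved both ways. Of 27 listed, 19 were tested, 7 were higher and 6 lower. Among the higher members were Npy, Crhbp, Elfn1 (2.44 ± 0.11), Trhde (2.37 ± 0.11), Grin3a (2.05 ± 0.07) and Calb1 (0.63 ± 0.11). Trhde encodes an enzyme that degrades thyrotropin-releasing hormone, and Calb1 a calcium-binding protein. Ndnf (-3.68), Kit (-3.09), Pvalb (-1.91), Col25a1 (-1.44), Tacr1 (-1.17) and Pnoc were lower. Reln, the extracellular protein reelin, was not called at -0.24 (adjusted p = 0.45), although it was detected in 64.0% of Sst-gated and 44.4% of Sst-negative nuclei.

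Among called genes of the lists, glutamate receptor genes were more often higher than lower in this fit, and GABA receptor genes more often lower. Over all genes 9.74% were higher and 9.71% lower, a balance that depended on the setting. No list was tested as a set. Of 7 metabotropic glutamate receptor genes, 6 were tested and 4 were higher, among them Grm8 (0.73), Grm7 (0.59) and Grm5 (0.55), with a median of 0.57 for the list. Among 16 tested ionotropic glutamate receptor genes, 7 were higher and 3 lower. Grin3a (2.05) and Grik3 (2.03) were the highest, and the others included Gria3 (0.93), Gria1 (0.78), Grik1 (0.73) and Gria4 (0.31). Grin2a (-0.53), Grid1 (-0.46) and Grin2b (-0.29) were lower, so the NMDA receptor subunit gene Grin3a lay on the opposite side from Grin2a and Grin2b. Of 14 GABA receptor genes, all tested, 10 were lower and 2 were higher, with a median of -0.48. Gabrd, the delta subunit of extrasynaptic receptors, had a log2 fold change of -2.29 ± 0.22, Gabrg3 -1.47, Gabra5 -1.40 and Gabra4 -0.90, whereas Gabrg1 was 1.61 and Gabra3 0.87 higher.

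Receptors for neuromodulators were mostly lower, with 11 lower and 4 higher among 17 tested. Hcrtr2, an orexin receptor (-3.05 ± 0.22), Htr3a, Cnr1, Npy1r (-2.04 ± 0.30) and Htr2c (-1.90 ± 0.36) led the lower genes, and Chrm3 (0.69), Oprd1 (0.61), Htr2a (0.46) and Oprm1 (0.36) were higher. Of 35 tested ion channel genes for firing, 6 were higher and 12 lower. All list counts of this paragraph stand beside 9.74% higher and 9.71% lower over all genes. Cacna2d3 was 1.24 and Kcnmb2 0.71 higher, and Kcnc2, a Kv3 channel, was 0.68 higher while its relative Kcnc1 (-0.59) was lower. All 37 synaptic adhesion genes were tested, with 12 higher and 14 lower. Elfn1, Cdh13 (1.31), Cdh9 (1.23) and Nxph1 (0.98) were on the higher side, and Erbb4 (-1.85), Ptprd (-1.27) and Cntnap5b (-1.23) on the lower. Of 6 tested perineuronal matrix genes 3 were lower, Hapln1 (-2.90), Vcan (-2.70) and Adamts17 (-1.34).

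Glucocorticoid response genes were lower in 6 of 9 tested, among them Zbtb16 (-1.35), Nr3c2, the mineralocorticoid receptor (-1.17 ± 0.08), Nr3c1, the glucocorticoid receptor (-0.66 ± 0.11), and Fkbp5 (-0.64 ± 0.12). Of 15 tested insulin, IGF and FoxO genes 6 were lower, including Foxo1 (-1.40), Igf1 (-0.97 ± 0.13) and Igf1r (-0.35 ± 0.07). Clock genes were lower in 6 of 13 tested, including Npas2 (-1.33) and Rora (-0.98). Of 12 tested chaperone genes 0 were called, and of 25 tested oxidative phosphorylation genes 1 was, Ndufa2 (0.78). GABA synthesis, loading and uptake differed in 1 of 9 tested genes. Over all genes 19.5% were called, 9.74% higher and 9.71% lower. No list was tested as a set, and counts in lists this short do not tell whether they differ from these shares.

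Other genes with large differences at a mean of at least 5 log2 CPM, by the rule for named genes, were Lypd6b (2.77 ± 0.12) and Lypd6 (2.29 ± 0.19), which modulate nicotinic receptors, the mannosidase gene Man1a (2.62 ± 0.22), the transcription factor gene Klf5 (2.52 ± 0.18), Olfm3 (2.09 ± 0.10), the calcium-dependent phosphodiesterase gene Pde1c (2.08 ± 0.14) and Daam2 (2.07 ± 0.13). On the lower side were Egfr (-4.82 ± 0.33), the phosphodiesterase genes Pde11a (-3.89 ± 0.36) and Pde3a (-2.90 ± 0.27), Chsy3 (-2.90 ± 0.26), Rgs12 (-2.77 ± 0.22), Cacna2d1 (-2.76 ± 0.21) and Igsf11 (-2.60 ± 0.11). In Sst-gated nuclei Egfr ran from 0 to 14 UMIs per mouse, Pde11a from 0 to 29 and Pde3a from 0 to 32. Hcrtr2, named above, ran from 0 to 18. The size of these folds is uncertain because the Sst-gated values lie near the floor. Each of the 14 lay on the same side in all 10 mice.

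Pvalb interneurons share the medial ganglionic eminence origin, so the 56 Pvalb-gated nuclei (median 14543.5 UMIs) were the nearest gate for comparison. With at least 10 nuclei of both gates only 2 mice, old AL mouse 1 and acute DR mouse 1, entered the test, and edgeR called 532 of 7646 genes (6.96%). With at least 5 nuclei, a setting chosen after seeing the data, 6 mice entered and 764 of 3948 genes were called (19.4%). The values that follow are from the 6 mice, whose 386 Sst-gated nuclei stood against 47 Pvalb-gated nuclei. Npy gave 948 UMIs in the Sst-gated and 0 in the Pvalb-gated nuclei. Against the level that 3 UMIs over all 47 nuclei would give, Npy was at least 58.0-fold higher. Reln was 5.14 ± 0.47 log2 units higher (edgeR adjusted p = 7.14e-05), Grin3a 4.44 ± 0.29, Man1a 4.38 ± 0.26, Elfn1 3.29 ± 0.30 and Trhde 2.35 ± 0.20, each in 6 of 6 mice. Of 10 tested subtype genes 8 were higher and 0 lower, and of 8 tested lineage factors 0 were higher and 1 was lower. Lhx6 (0.42), Satb1 (0.19) and Sox6 (-0.08) were not called. Crhbp was detected in 46.4% of Pvalb-gated and 40.7% of Sst-gated nuclei, and Satb1 in 91.1% and 88.1%, against 8.6% and 35.7% of Sst-negative nuclei. Syt2, a synaptotagmin of fast release (-4.39 ± 0.35), the potassium channel genes Kcna1 (-1.92 ± 0.19) and Kcnc1 (-1.76 ± 0.13), Erbb4 (-1.98 ± 0.16) and Mef2c (-1.54 ± 0.15) were lower in the Sst-gated nuclei of all 6 mice. Of 15 tested ionotropic glutamate receptor genes 7 were higher and 0 lower, and of 5 tested metabotropic genes 3 were higher and 0 lower. Grin2a, which was lower than in Sst-negative nuclei, was 1.35 ± 0.35 log2 units higher than in Pvalb-gated nuclei.

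Clustering the 511 nuclei by their own variable genes gave 9 groups of 11 to 94 nuclei, each with nuclei from 4 to 13 libraries. Clusters were built from these genes, so their values are a description with no test. Cluster 0 (94 nuclei) was led by Vwc2l, Tmem132c and Pde1c, with Npy in 83.0% and Crhbp in 64.9%, and cluster 2 (86 nuclei) by Fgf10 and Cdh6, with Npy in 68.6% and Crhbp in 6.98%. Cluster 1 (87 nuclei) was led by Cdh7 and Lama4, with Reln in 83.9% and Npy in 17.2%. Cluster 3 (65 nuclei) was led by Klhl14 and Eya1, with Reln in 100% and Npy in 10.8%. Clusters 5 and 6 had little Elfn1, at 25.6% and 4.88%. Cluster 5 (43 nuclei) was led by Corin and Sorcs3, and cluster 6 (41 nuclei) by Myo1e and Pdzrn3, with the tachykinin precursor gene Tac1 among its 10 leading genes. Cluster 7 (27 nuclei) was led by Col6a6, Kif26a and the prolactin receptor gene Prlr, with Crhbp in 0% and Satb1 in 44.4%.

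Cluster 8 was the smallest, with 11 nuclei from 4 libraries, 5 of them from old AL mouse 1 and 4 from acute DR mouse 1. Its leading genes were Chodl, Ntn1, Tacr1 and Nos1, the genes known from long-range somatostatin cells, and Nos1 was detected in 100% of its nuclei. Npy and Crhbp were found in 100%, Reln in 0%, and the median Sst count was 12 UMIs against 4 to 6 in the other clusters. Over all 511 nuclei 9 carried a Chodl UMI, of which 8 also carried Nos1 and 7 Tacr1.

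Cluster 4 (57 nuclei) stood apart in another way. It held 33 of the 34 doublet calls, which is 57.9% of its nuclei, its median depth was 17980 UMIs, Slc17a7 was detected in 70.2% and Adarb2 in 71.9%, and its leading genes were Smoc2, Arpp21 and Nfia. Acute DR mouse 1 gave 20 of its nuclei. In the other clusters Slc17a7 was found in 0% to 11.6% of nuclei.

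**Figure D4:**
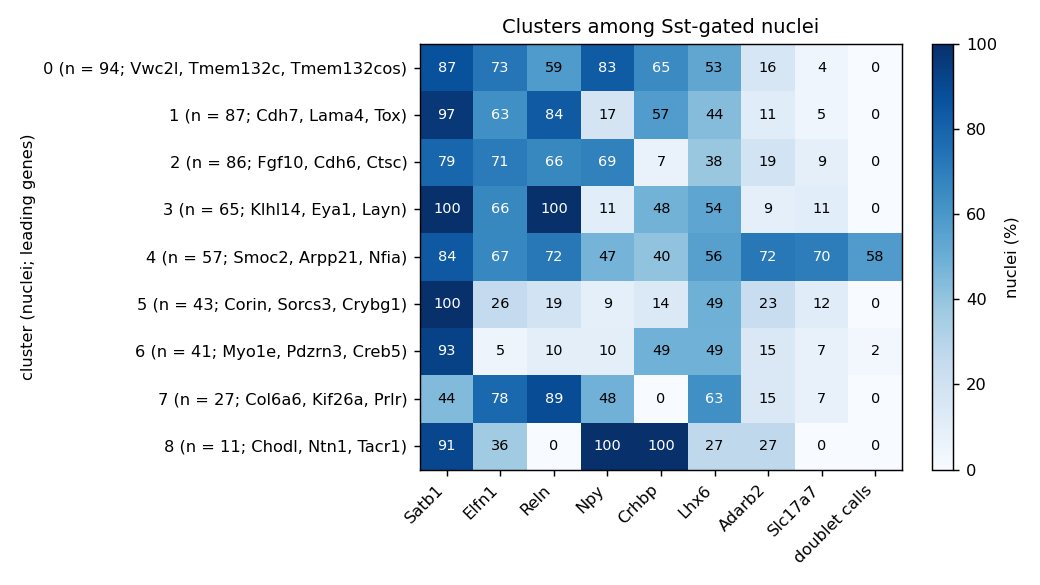
Percentage of nuclei with at least 1 UMI of each gene, and percentage called doublets (last column), in the 9 clusters of Sst-gated nuclei, with the number of nuclei and leading genes of each cluster beside its row. Cluster 4 holds the Slc17a7, Adarb2 and doublet values, and cluster 8 has Npy and Crhbp in 100% and Reln in 0%.

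Among pairs of genes within the 511 nuclei, Reln was found in 75.3% of nuclei with an Elfn1 UMI and 47.3% of those without. Crhbp was found in 45.9% of nuclei with Npy and 36.9% without, and Cort, the precursor of cortistatin, in 13.1% of all, with Npy present in 58.2% of the 67 Cort nuclei and in 40.3% of the rest. Detection also depends on depth, and these shares were not thinned.

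The ageing comparison set the members of 3 old AL mice against those of 3 young AL mice, in an edgeR fit over all 10 mice with at least 10 members. Of 8448 genes, 0 were called (0%), with 782 at an unadjusted p below 0.05, and DESeq2 called 32. Depth differed between the groups: the members' median UMIs were 8470, 5047.5 and 8954 in young and 13671, 11365 and 10992 in old mice, with no overlap, so depth and age cannot be told apart in these libraries. With the median depth as a covariate edgeR also called 0, and with the replicate number as a block it called 42, 24 higher and 18 lower. Leaving out young AL mouse 1 gave 146 calls, 39 higher and 107 lower, leaving out old AL mouse 1 gave 16, 8 in each direction, and leaving out all libraries numbered 1 gave 114, 34 higher and 80 lower. When a term for the libraries numbered 1 was added, 40 genes were called (0.473%), 20 higher and 20 lower in old mice. The genes below come from that fit. The edgeR fit described first called none of the 40, whereas DESeq2 called 20 of them, edgeR without the filter on low counts 38, and edgeR without young AL mouse 1 26. With the replicate number as a block edgeR called 18 of them, and with the libraries numbered 1 left out 21. The settings that follow called few of them. With nuclei thinned to 4000 UMIs 2 of the 37 tested were called. Without doublets 2 of the 40 were called, with a gate of 5 UMIs 1, and with the depth covariate or RLE factors 0. Thinning and these settings were fitted without the term for the libraries numbered 1, so they stand beside the 0 called without it.

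On the higher side in old mice were Ptprk, a receptor phosphatase, Maml3, a coactivator of Notch, and Grik4, a kainate receptor subunit. Ptprk stood at 5.70, 5.09 and 5.90 log2 CPM in young and 7.77, 6.85 and 7.27 in old mice, a difference of 1.82 ± 0.31 log2 units (SE; adjusted p from edgeR 0.00614 with the term, 0.0964 without). Maml3 stood at 5.81, 4.60 and 5.52 in young and 6.85, 7.30 and 6.79 in old mice (1.40 ± 0.28). Grik4 stood at 6.17, 5.46 and 5.90 in young and 6.99, 7.49 and 7.27 in old mice (1.18 ± 0.25). Named genes had to have groups that do not overlap, which held for 33 of the 40 called (82.5%), so the separation of these mice was part of the choice. The share of all tested genes whose age groups do not overlap is not given here, so the 82.5% has no background to be read against. The potassium channel gene Kcnh1 followed at 1.65 ± 0.34, with Tshz2 (2.00 ± 0.41), Prkcb (1.40 ± 0.28), Shisa9, an auxiliary protein of AMPA receptors (1.25 ± 0.25), Lrp1b (1.07 ± 0.21), Ldb2 (1.04 ± 0.22) and Setbp1 (0.88 ± 0.19). Several rest on few UMIs in young mouse 2, with 1 of Tshz2 and Kcnh1, 2 of Maml3, 3 of Ptprk and 4 of Grik4.

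On the lower side were Ube3a, the ubiquitin ligase of Angelman syndrome, Pcsk1, the convertase PC1 that processes peptide precursors, and Cst3, a secreted protease inhibitor. Ube3a stood at 9.85, 11.10 and 10.60 log2 CPM in young and 9.47, 9.32 and 9.65 in old mice (-1.13 ± 0.22). Pcsk1 stood at 5.17, 6.38 and 6.78 in young and 4.44, 4.75 and 4.51 in old mice (-1.71 ± 0.40, edgeR adjusted p = 0.0371 with the term, 0.176 without). Pcsk1 rests on few UMIs, since 4.51 log2 CPM in old AL mouse 4 stands for 7 UMIs and 4.75 in old AL mouse 2 for 9. Cst3 was at -1.39 ± 0.30, Nrg3os at -1.45 ± 0.20, Slc24a5 at -1.22 ± 0.25, Gsdme at -1.08 ± 0.24, P2ry14 at -1.07 ± 0.23, Abhd15 at -1.96 ± 0.35 and Spag16 at -2.48 ± 0.58. Young mouse 1 was the lowest young mouse for Ube3a, Pcsk1 and Nrg3os.

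By group, 3 of 16 peptide processing genes were called with the term, Pcsk1 and its inhibitor Pcsk1n lower and Cadps2 higher, beside 0.473% of all genes tested, and 1 of 16 ionotropic glutamate receptor genes, Grik4. Cadps2 rests on 30, 0 and 5 UMIs in young mice 1, 2 and 3. Of 11 tested chaperone genes 1 was called, Hspa8, lower. In that fit 0 were called among 11 lineage factors, 15 subtype genes, 5 neuropeptides, 13 GABA receptors, 34 firing channels and 24 oxidative phosphorylation genes, lists too short at that share for a count of 0 to describe them. The medians of the lists differed, without calls: chaperones stood at -0.79 and oxidative phosphorylation genes at -0.62 in the fit without the term, beside -0.02 over all genes, and GABA receptors at 0.30 and adhesion genes at 0.25. Gene span went with these values. The 20 genes called higher spanned a median of 442 kb and the 19 genes called lower with a RefSeq span 20.6 kb, against 40.5 kb over all tested genes, and the rank correlation of fold change and span over 8107 genes was 0.47, given as a description over genes, which are not replicates.

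**Figure D5:**
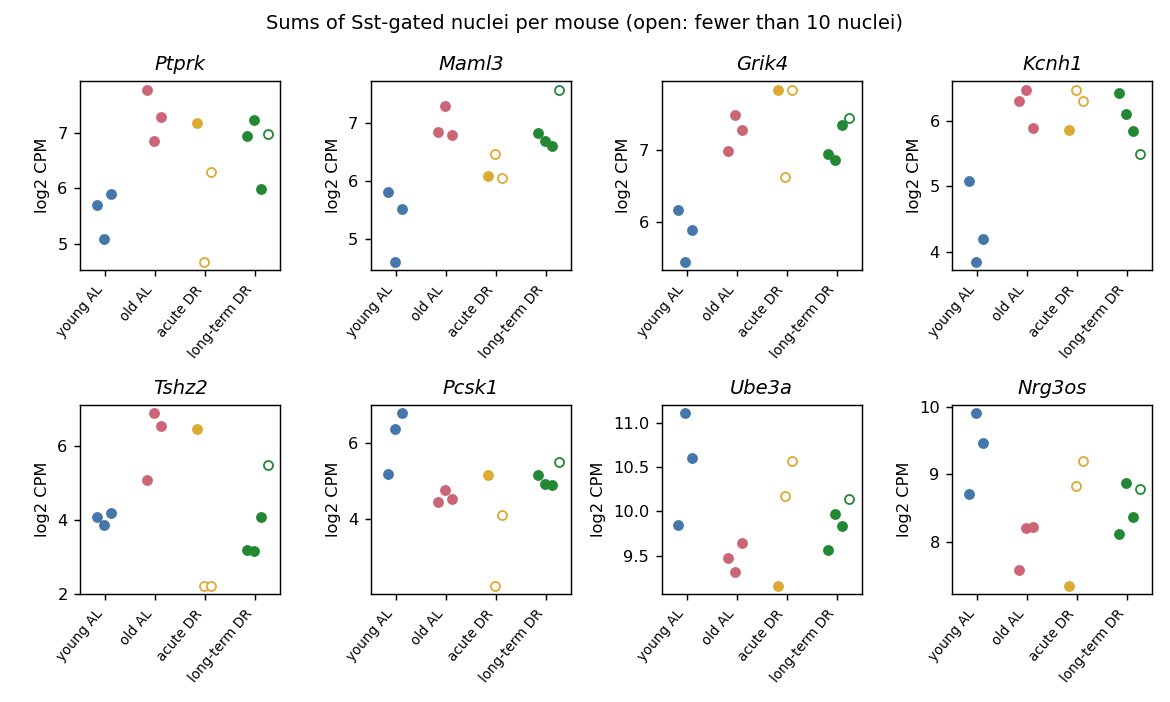
Log2 CPM of 8 genes in summed Sst-gated nuclei of each mouse by group, with open circles for the 3 mice with fewer than 10 such nuclei, which did not enter the test. Ptprk, Maml3, Grik4, Kcnh1 and Tshz2 lie higher and Pcsk1, Ube3a and Nrg3os lower in old AL than in young AL mice, and the 8 were chosen from called genes whose age groups do not overlap.

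Summed markers of some other cell types also differed between the age groups, and those of others overlapped. The summed level of 5 microglial markers in the members was between 72.4 and 192 CPM in young and between 30.4 and 38.9 CPM in old AL mice, without overlap, with all 5 detected in some nucleus and in 0.587% to 21.3% of nuclei. The 5 excitatory markers stood between 203 and 237 CPM in young mice and reached 372 CPM in old mice, each old mouse above each young mouse, and the 4 CA3 markers between 308 and 423 and between 561 and 688 CPM. The most detected excitatory marker was found in 73.2% of the members and the most detected CA3 marker in 77.1%. The 5 astrocyte markers overlapped, between 11.3 and 269 CPM in young and 32.9 and 162 CPM in old mice. Oligodendrocyte, precursor, granule, CA1 and endothelial sums overlapped too. Gad1, Gad2, Sst and Lhx6, the members' own markers, summed to 1365 to 1896 CPM in young and 936 to 1211 CPM in old AL mice, without overlap. The rule selected on Gad1, Gad2 and Sst, and the members' depth also did not overlap between these groups. This sum is therefore a description and does not show a change with age. Cpne4, of the CA3 list, was itself among the 40 genes called, at 1.18 ± 0.27. The part of these markers in the ageing values was not tested.

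Dietary restriction was compared with old AL feeding in the same fit. For long-term DR, which kept 3 of its 4 mice, 0 of 8448 genes were called (0%), with 193 at an unadjusted p below 0.05. With the replicate number as a block 2 genes were called, both lower. With the term for the libraries numbered 1, 1 gene was called (0.0118%), the zinc finger gene Tshz2. Its level was 5.09, 6.88 and 6.53 log2 CPM in old AL mice, from 26, 46 and 34 UMIs, and 3.19, 3.17 and 4.09 log2 CPM in the 3 long-term DR mice, from 3, 1 and 4 UMIs. The groups did not overlap. Long-term DR minus old AL was -3.22 ± 0.44 log2 units (edgeR adjusted p = 0.000162 with the term, 0.0940 without). Long-term DR mouse 4, left out of the fit for its 9 members, gave 5 UMIs and 5.50 log2 CPM, within the range of the old AL mice. With at least 5 nuclei per mouse, which brings in all 13 mice, and without the term, the log2 fold change was -2.80 and the edgeR adjusted p 1.00. The like value without the term is the 0.0940 above. With at least 5 nuclei and the term, 0 genes were called for long-term DR.

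Acute DR kept 1 mouse, since 2 of its 3 mice had 7 members each, and the fit assumes that this lone mouse varies like the other groups. For acute DR against old AL 0 genes were called (0%), with 148 at an unadjusted p below 0.05, and with the term 1 gene (0.0118%), which was not called without it. Long-term against acute DR gave 0 calls (0%), with 166 at an unadjusted p below 0.05, and with the term 1, again Tshz2 (-4.40 ± 0.52, 0.0118%), which had 93 UMIs in the acute DR mouse and 0 in both acute DR mice left out. With at least 5 nuclei per mouse, which brings in all 3 acute DR mice, edgeR with the term called 0 genes in both acute DR contrasts, with 276 at an unadjusted p below 0.05 for acute DR against old AL and 229 for long-term against acute DR. DESeq2 called 1 gene for long-term DR and 0 for both other DR contrasts.

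The named peptide and subtype genes did not pass the test in any DR contrast. Npy stood at 7.99, 6.66 and 6.57 log2 CPM in old AL mice, 8.27 in the acute DR mouse and 7.52, 7.46 and 7.00 in long-term DR mice. Grin3a stood at 9.43, 9.60 and 9.62 in old AL mice, 9.55 in the acute DR mouse and 9.47, 9.54 and 10.00 in long-term DR mice. For Grin3a the range over all 10 mice was from 8.92 to 10.00 log2 CPM. Elfn1 ran from 6.51 to 7.42 log2 CPM and Npy from 6.57 to 8.27 log2 CPM over the same mice. Fkbp5, which responds to glucocorticoids, stood at 5.27, 5.38 and 5.26 in old AL mice and 4.74, 4.92 and 5.02 in long-term DR mice (4.39 in long-term DR mouse 4, outside the fit), and it was not called. Fkbp5 was picked from a list of 16 glucocorticoid response genes, whose other values under DR are not given here.

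The ageing change was tested directly for a difference between the Sst-gated and the Sst-negative inhibitory nuclei. Of 13546 genes, 1 was called (0.00738%), with 510 at an unadjusted p below 0.05. This was Sdk1, an adhesion protein of the immunoglobulin superfamily. In Sst-gated nuclei it stood at 7.89, 7.05 and 7.48 log2 CPM in young and 7.09, 7.05 and 6.61 in old mice, and in Sst-negative nuclei at 8.28, 7.65 and 8.41 in young and 8.66, 8.76 and 8.32 in old mice. The old minus young difference was 1.06 log2 units smaller in the Sst-gated nuclei (-1.06 ± 0.21, edgeR adjusted p = 0.0355). DESeq2 called 0 genes, and Sdk1 was not called with nuclei thinned to 4000 UMIs (-0.997, edgeR adjusted p = 0.674) or without young AL mouse 1 (-0.81), old AL mouse 4 (-1.03), acute DR mouse 1 (-1.05) or long-term DR mouse 2 (-1.02).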

How the data were processed

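Nuclei of 13 libraries (10x 3′ v3) were analysed. The deposited counts are the authors' UMI counts per gene and barcode, made with Cell Ranger 4.0.0 on mm10, per the submitters' processing notes. Barcodes under 500 genes or above 5% mitochondrial UMIs were dropped. Doublet scores came from Scrublet (scanpy 1.11.5). The barcodes of highest score in each library were called doublets, in a number set beforehand at 0.8% per 1000 barcodes. They were kept in the main analysis. Counts were summed per mouse and gate, with at least 10 nuclei, and tested with edgeR 4.0.16 (TMM, quasi-likelihood, Benjamini-Hochberg, R 4.3.3), with DESeq2 1.42.0 as an alternative. Log2 CPM used a prior count of 2. Groups share 1 fit, and p-values measure the spread between these samples. The scripts were tested on simulated data. Members were clustered by 1500 variable genes, 15 components and resolution 0.6 (leidenalg 0.10.2). Summed members held 76387 to 1181928 UMIs per mouse. Intervals cover counting error only. Named genes: per group contrast, up to 10 called genes per direction by adjusted p whose groups did not overlap (from the fit with a term for the libraries numbered 1 where the fit without it called fewer than 5); per gate comparison, up to 12 per direction by fold at a mean of at least 5 log2 CPM; and genes of the lists. The members and lists were chosen with earlier results of these data known. Results for some genes are not reported here.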

Additional observations from a re-analysis of the deposited data

Results flagged for a closer look

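The ageing difference of Sdk1 was set apart between Sst-gated and Sst-negative inhibitory nuclei by a test of the difference itself, in the fit as described but not at matched depth. The old minus young change was -1.06 log2 units relative to that in Sst-negative nuclei (± 0.21, SE; edgeR adjusted p = 0.0355). It rests on 462 UMIs in the Sst-gated and 6445 in the Sst-negative nuclei of the young and old AL mice, and DESeq2 called no gene for this difference. With nuclei thinned to 4000 UMIs the value was -0.997 and was not called (edgeR adjusted p = 0.674), nor was it without young AL mouse 1 (-0.81), old AL mouse 4, acute DR mouse 1 or long-term DR mouse 2.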

How the results depend on the processing

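Ageing calls (0 in the fit as described) were 32 with DESeq2, 126 without a filter on low counts, 40 with a term for the libraries numbered 1, 114 with those libraries left out, 3 with nuclei thinned to 4000 UMIs, 3 without doublets, 1 with a gate of 5 UMIs, and 0 to 146 with each mouse left out in turn. An alternative chosen after seeing the data, at least 5 nuclei per mouse with that term, gave 32, of which 28 were among the 40. Long-term DR gave 1 call with DESeq2, without the filter, with the term and with libraries numbered 1 left out, and 0 to 1 with each mouse left out. Acute DR gave 1 with the term and 2 without the filter. Long-term against acute DR gave 1 with the term, 6 without the filter, 2 after thinning, and 0 to 1 with each mouse left out. The difference in ageing change (1 call) gave 0 with DESeq2, 11 without the filter, 2 with RLE factors, 9 without doublets, and 0 to 14 with each mouse left out. Against Sst-negative nuclei (1861 calls) there were 1156 after thinning, 892 with the stricter gate, 1025 without libraries numbered 1 (chosen after seeing the data) and 1612 to 1867 with each mouse left out. Against Pvalb-gated nuclei (532) there were 156 with DESeq2 and 279 of 2943 genes after thinning, and 756 without doublets and 704 without the filter. The cause of these changes was not tested.

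With the replicate number as a block, ageing gave 42 calls, of which 18 were among the 40, and long-term DR and long-term against acute DR gave 2 each. Of 7 same-numbered pairs, 5 had correlated deviations above 0.1 (range over the 7 -0.0589 to 0.21, 5153 genes), against -0.126 to 0.0914 for differently numbered pairs. This is a hint of pairing from the data, strongest among libraries numbered 1; since not every pair passed 0.1 and the labels name no shared batch, the number was not taken to pair the samples.

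The old minus young member share (0.02 log2 odds) reversed to -1.57 after thinning and -0.049 without doublets, and ran from -0.40 to 0.52 with each mouse left out, with -0.30 without young mouse 2, -0.15 without young mouse 3 and -0.40 without old mouse 1. The thinned old minus young value rests on 10, 2 and 3 nuclei in old AL mice. Long-term minus acute DR share was -0.017 after thinning, from 1 and 2 nuclei in acute DR mice 2 and 3 and 0 in long-term DR mouse 4. For the Sst level in Lhx6-positive nuclei, old minus young ran from -0.90 to 0.18 with each mouse left out (0.18 without young mouse 1), long-term DR minus old AL was 0.38 after thinning, and long-term minus acute DR ran from -0.17 (without acute mouse 2) to 1.12. None of these passed its test. The Pvalb comparison could not be fitted with the stricter gate or with a mouse left out, nor the acute DR contrasts without acute mouse 1. Few nuclei per mouse limit all group contrasts.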
